A study of Mus musculus with 24 samples.

Results

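Nuclear factor κB (NF-κB) is a family of dimeric transcription factors that inhibitor proteins of the IκB family hold in the cytoplasm of resting cells. When a receptor for a cytokine or a microbial product is engaged, a kinase complex marks the inhibitor for destruction, and the dimer enters the nucleus and activates genes. Some of those genes encode the pathway's own brakes and parts, so the response feeds back on itself. In myeloid cells the pathway is known for driving inflammatory cytokines and chemokines. The 9 genes described here, of 22371 in the RNA-seq tables, were chosen by name as members of that feedback. The choice was made with earlier results of these data known. They are the IκB genes Nfkbia, Nfkbiz and Bcl3, the ubiquitin-editing inhibitor Tnfaip3, the cytokine Tnf, the mRNA decay factor Zfp36, and the family members Nfkb1, Nfkb2 and Relb. Every peak and methylation region within 50 kb of their gene spans was taken with them.

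The cells were from mouse bone marrow. HOXA9, a homeobox factor that keeps myeloid progenitors dividing, had immortalized them, and they carried a vector for IDH1 R132H, a mutant isocitrate dehydrogenase that makes 2-hydroxyglutarate. The vitamin C group received 0.345 mM vitamin C at 0, 24 and 48 h and was collected at 72 h. The untreated group had the same genotype and no vitamin C. All groups, controls included, grew with IL-3 at 6 ng/ml, IL-6 at 10 ng/ml and SCF at 20 ng/ml. A list of MeDIP-seq regions is attached to untreated cells with a vector for wild-type IDH1 but is named for the mutant, and which cells its regions stand for is not stated. The labels give no clone, animal or promoter of the vector, and how far the HOXA9 line stands for leukaemia cells was not measured here.

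Each group was 1 library in each assay, so no difference between conditions has a replicate check and no p-value was computed. The RNA libraries held 111453443 counted reads with vitamin C and 86804487 untreated. All 12 myeloid progenitor markers were measured, with a summed level of 3814 RPKM (reads scaled by gene length and library total) with vitamin C and 7150 RPKM untreated. Hoxa9, the gene of the immortalizing factor, made up 1487 RPKM of that sum with vitamin C and 3062 RPKM untreated. None of the 8 B cell markers was measured, and of the T and NK cell markers Lck alone reached 1 RPKM. In bulk RNA, fewer cells of a type and less RNA per cell cannot be told apart.

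The stretch of 250 bases before the start of each gene was available from RefSeq (GRCm38.p6, which is mm10) for 6 of the 9 genes, as 9 promoters. Sequences are shown for 5 genes because their RNA levels or the factor peaks over them carry the results below, and because they differ in their matches to the κB consensus, the sequence that NF-κB dimers bind. In Tnfaip3, Nfkbia and Nfkb2 the capitals mark κB matches on either strand, and the 2 matches farthest upstream in Nfkb2 overlap. In Zfp36 they mark a GCGNGGGCG motif of EGR factors and then a CArG box, the site of serum response factor. In Tnf they mark the GAGGAA core bound by PU.1 and other ETS factors, on the reverse strand. All 5 run 5′ to 3′ on the strand of the gene, ending 1 base before its start.
Tnfaip3 (chr10:19015411-19015660, minus strand): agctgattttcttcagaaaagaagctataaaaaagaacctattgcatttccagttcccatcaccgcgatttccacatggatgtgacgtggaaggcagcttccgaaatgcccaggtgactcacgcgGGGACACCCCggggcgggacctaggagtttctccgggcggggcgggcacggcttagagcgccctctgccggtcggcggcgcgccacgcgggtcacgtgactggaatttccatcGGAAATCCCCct
Nfkbia (chr12:55492648-55492897, minus strand): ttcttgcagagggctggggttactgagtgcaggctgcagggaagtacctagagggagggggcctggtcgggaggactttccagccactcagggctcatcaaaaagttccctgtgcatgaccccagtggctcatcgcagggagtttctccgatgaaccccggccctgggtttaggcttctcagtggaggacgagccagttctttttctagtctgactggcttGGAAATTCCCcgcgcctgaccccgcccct
Nfkb2 (chr19:46304487-46304736, plus strand): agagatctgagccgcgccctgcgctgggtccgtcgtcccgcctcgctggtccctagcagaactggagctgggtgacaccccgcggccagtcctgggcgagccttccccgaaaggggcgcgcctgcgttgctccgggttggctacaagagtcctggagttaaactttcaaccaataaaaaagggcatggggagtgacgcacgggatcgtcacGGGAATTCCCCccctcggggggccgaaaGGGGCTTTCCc
Zfp36 (chr7:28379229-28379478, minus strand): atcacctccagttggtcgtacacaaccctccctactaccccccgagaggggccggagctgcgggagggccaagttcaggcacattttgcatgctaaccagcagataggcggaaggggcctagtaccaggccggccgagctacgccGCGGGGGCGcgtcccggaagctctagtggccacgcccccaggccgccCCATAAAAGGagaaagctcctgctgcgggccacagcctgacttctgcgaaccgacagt
Tnf (chr17:35202008-35202257, minus strand): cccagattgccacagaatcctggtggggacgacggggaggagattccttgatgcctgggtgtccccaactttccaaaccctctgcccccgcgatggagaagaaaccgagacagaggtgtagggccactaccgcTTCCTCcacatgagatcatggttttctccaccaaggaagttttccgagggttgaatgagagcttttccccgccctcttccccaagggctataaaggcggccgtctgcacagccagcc

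A κB match lay in 5 of the 9 member promoters, against 7.25% of 32851 promoters of that length. Those 5 belong to 3 genes, since Nfkb2 has 3 listed starts with a match in each. Tnfaip3 held κB matches at −125 to −116 and at −12 to −3, counted from the start. Nfkbia held 1 at −29 to −20. None of Zfp36, Tnf and Bcl3 held such a match in this window, and sequence farther away was not searched. The EGR motif of Zfp36, at −105 to −97, was found in 4.70% of promoters, and its CArG box, at −58 to −49, in 1.47%. The ETS core was found in 23.3% of promoters, so the match in Tnf is of a common kind. A match to TGANTCA, the AP-1 motif, preceded the first κB match of Tnfaip3 at −136 to −130 (6.75% of promoters). A match to TGNGGT, the RUNX motif, was found in Nfkbia at −236 to −231 and at −132 to −127 (40.1% of promoters). Letters in a window show no binding, and each match is given only as a description.

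In the RNA, 4 of the 9 genes were at least 2-fold higher with vitamin C: Zfp36, Tnf, Nfkbiz and Tnfaip3. Relb, Nfkbia and Nfkb2 were higher by less than that on the scale used, Nfkb1 was nearly level, and Bcl3 was scarcely detected. Folds were counted on log2(RPKM + 0.5) over genes with at least 1 RPKM in either library, called measured genes, of which there were 10436. Over them, 2.38% were 2-fold higher with vitamin C and 1.92% were 2-fold lower. Of the 9 genes 8 were measured, none was 2-fold lower, and their median log2 change was 1.07, against −0.04 over all measured genes. As the genes were chosen with earlier results of these data known, these contrasts with all measured genes are descriptions only. Since genes were kept if either library reached 1 RPKM, a gene could be kept through its higher library alone, but all 8 measured genes passed in both libraries. Ratios below are of RPKM, with 95% exact binomial intervals from the split of reads, which cover counting error only.

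Zfp36, known as tristetraprolin, binds AU-rich elements of cytokine mRNAs, Tnf among them, and hastens their decay. It had 106 RPKM with vitamin C (17702 reads) and 15.5 RPKM untreated (2019 reads), a ratio of 6.86 (6.55 to 7.19). That was the widest gap among the 9 genes, and its log2 change of 2.74 stood at place 20 of the measured genes. Zfp36 is also widely counted among immediate early genes.

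Tnf, the cytokine that both activates NF-κB through its receptors and is a target of it, had 22.6 RPKM with vitamin C (3438 reads) and 6.47 RPKM untreated (771 reads). The ratio was 3.49 (3.23 to 3.78), at place 80 among measured genes. Tnf and its decay factor were thus both higher in the vitamin C library.

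Among the inhibitors, Nfkbia encodes IκBα, which returns NF-κB dimers to the cytoplasm. It was the most abundant inhibitor, at 62.1 RPKM with vitamin C (9106 reads) and 39.9 RPKM untreated (4579 reads), a ratio of 1.56. With the reads of both libraries halved, which widens a counting interval, that of Nfkbia ran over 1.48 to 1.64. Tnfaip3 encodes the enzyme that removes activating ubiquitin chains from signalling proteins upstream of the kinase complex. It had 6.22 RPKM with vitamin C (4179 reads) and 2.39 RPKM untreated (1256 reads), a ratio of 2.60 (2.44 to 2.78). The inhibitor that was higher in level was the one with the smaller difference.

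Nfkbiz and Bcl3 encode nuclear IκB proteins, which bind NF-κB dimers on DNA and modulate their targets. Nfkbiz had 5.33 RPKM with vitamin C (2488 reads) and 1.88 RPKM untreated (686 reads), a ratio of 2.84 (2.61 to 3.09). Bcl3 had 0.195 RPKM with vitamin C (45 reads) and 0.283 RPKM untreated (51 reads). Its ratio of 0.690 had an interval of 0.452 to 1.05, so no difference was detectable for Bcl3 at this depth.

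None of the family members themselves was past 2-fold on the scale with 0.5 RPKM added. Nfkb1 and Nfkb2 encode precursors that are processed to DNA-binding subunits, and Relb encodes the partner that dimerizes with the product of Nfkb2 in the non-canonical branch. Nfkb1 was the highest of the 9 in either library, at 129 RPKM with vitamin C (57170 reads) and 138 RPKM untreated (47953 reads). Its ratio was 0.933 (0.922 to 0.944), a gap of −0.10 on the log2 scale. Nfkb2 had 24.5 RPKM with vitamin C (7499 reads) and 16.3 RPKM untreated (3897 reads), a ratio of 1.51 (1.45 to 1.57). Relb had 4.78 RPKM with vitamin C (1726 reads) and 2.27 RPKM untreated (641 reads). The RPKM ratio of Relb was 2.11 (1.92 to 2.31), while its log2 change with 0.5 RPKM added was 0.93, just under the 2-fold line, and with 0.1 RPKM added Relb joined the 2-fold genes. At 1.5-fold, which 6.21% of measured genes passed upward, 6 of the 9 genes were higher and none was lower, against 6.64% of measured genes.

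**Figure D1:**
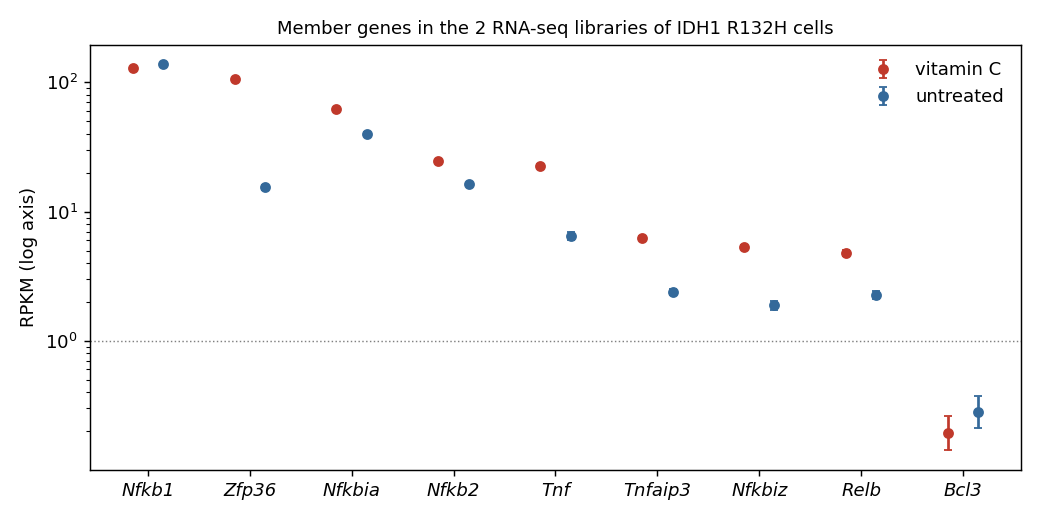
RPKM of the 9 genes on a log axis, with vitamin C (red, left of each pair) and untreated (blue, right). Bars are 95% counting intervals, mostly smaller than the points, and the dotted line marks 1 RPKM. Zfp36 shows the widest gap, Nfkb1 is nearly level and Bcl3 lies below the line in both libraries.

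Ordered by RPKM, which is per length, the vitamin C library ran Nfkb1, Zfp36, Nfkbia, Nfkb2, Tnf, Tnfaip3, Nfkbiz, Relb and Bcl3, and no neighbours had overlapping counting intervals. The untreated library ran Nfkb1, Nfkbia, Nfkb2, Zfp36, Tnf, Tnfaip3, Relb, Nfkbiz and Bcl3. There Nfkb2 and Zfp36 overlapped, as did Tnfaip3 and Relb. Zfp36 therefore took the second place with vitamin C and the fourth untreated. In the authors' deposited table of genes higher with vitamin C, which holds 3.93% of measured genes, 6 of the 9 are listed: Zfp36, Tnf, Nfkbiz, Tnfaip3, Relb and Nfkbia. None is in the authors' deposited table of lower genes, which holds 1.72% of measured genes. Both tables are attached to these libraries, so they add no separate evidence.

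For each gene past 2-fold, the measured genes nearest in the levels of the 2 libraries were found by Euclidean distance on log2(RPKM + 0.5). Bnip3 (distance 0.026) and Spp1 (0.180) lay nearest to Zfp36, at 107 and 93.9 RPKM with vitamin C and 15.8 and 15.2 RPKM untreated. Nearest to Tnf were 4932438H23Rik (0.111) and Tnfsf9 (0.146), of which Tnfsf9 encodes a ligand of the TNF family. Ccr4 (0.041) and Ctss (0.176) lay nearest to Tnfaip3, and Ly6g5b (0.124) and Dcun1d3 (0.138) to Nfkbiz. Likeness over 2 libraries is weak, since any gene of equal levels meets it.

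The rest of the pathway was read from a list of 90 other genes, of which 88 were in the table and 71 were measured. Among those 71 genes, 11 were 2-fold higher with vitamin C and 1 was 2-fold lower, against 2.38% higher and 1.92% lower of all measured genes. The median log2 change of the 71 was 0.12. Of the 11, 4 (Cxcl2, Ptgs2, Il1b and Tnip3) reached 1 RPKM with vitamin C alone, so they could be kept only by being higher there, and the count and median are descriptions. The higher ones were mostly target genes, 8 of 16 measured, with a median log2 change of 0.72. Of those 16 targets 13 were above 0 and none was 2-fold lower, but they did not all rise. Irf1 had 7.03 RPKM with vitamin C and 12.4 RPKM untreated, and Gadd45b had 8.27 RPKM with vitamin C and 11.9 RPKM untreated. The machinery that relays the signal was close to level in its medians, while single genes differed in either direction. Tab1 had 11.1 RPKM with vitamin C and 18.5 RPKM untreated, and Irak2 had 28.0 RPKM with vitamin C and 18.5 RPKM untreated. No kinase (8 measured), adaptor (17), IκB protein outside the 9 (3) or remaining subunit (2) was past 2-fold in either direction, with medians of −0.04, −0.05, 0.23 and 0.11. The adaptor Traf5 was close to that line, with 136 reads with vitamin C and 257 untreated, an RPKM ratio of 0.414 (0.334 to 0.512), and with 0.1 RPKM added it was past 2-fold downward.

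Of the 8 target genes past 2-fold, 5 encode chemokines or cytokines. Cxcl2, which attracts neutrophils and had the widest gap of the pathway list, had 40.4 RPKM with vitamin C (3955 reads) and 0.764 RPKM untreated (59 reads), a ratio of 52.5 (40.6 to 69.0). Il6 had 45.4 RPKM with vitamin C and 6.90 RPKM untreated. Human IL-6 protein was an additive of the medium in all groups. Ccl4 had 113 RPKM with vitamin C and 21.7 RPKM untreated, and Ccl3, the most abundant, had 673 RPKM with vitamin C and 246 RPKM untreated. Both encode chemokines with close paralogs, among which reads may have been divided. Csf1, the macrophage growth factor, had 65.7 RPKM with vitamin C and 31.4 RPKM untreated.

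Of the other targets, Ier3, a stress-induced survival gene, had 206 RPKM with vitamin C and 27.6 RPKM untreated. Ptgs2, the inducible cyclooxygenase, had 8.85 RPKM with vitamin C and 0.962 RPKM untreated. Icam1, an adhesion molecule, had 3.44 RPKM with vitamin C and 1.45 RPKM untreated, a log2 change of 1.02 at the edge of the 2-fold line.

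Upstream, the ligand gene Il1b had 3.88 RPKM with vitamin C (688 reads) and 0.373 RPKM untreated (52 reads), a ratio of 10.4 (7.80 to 14.0). Of the receptors, Tlr2, which senses bacterial lipoproteins, had 11.0 RPKM with vitamin C and 4.47 RPKM untreated. Tnfrsf1a, the main receptor for TNF, went the other way, at 26.7 RPKM with vitamin C (6427 reads) and 64.6 RPKM untreated (12178 reads), 2.42-fold lower. At these settings no other gene of the list was past 2-fold downward. Tnf was thus higher and Tnfrsf1a lower in the vitamin C library. Tnfrsf1b, another receptor for TNF, had 76.5 RPKM with vitamin C and 60.9 RPKM untreated.

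Among 14 measured negative regulators, Tnip3, a partner of the Tnfaip3 protein, was the sole gene past 2-fold, at 3.88 RPKM with vitamin C and 0.915 RPKM untreated. In the roles without such a gene, the most abundant were level or nearly so. Rela, the main activating subunit, had 53.4 RPKM with vitamin C and 49.6 RPKM untreated. The inhibitor Nfkbib had 26.2 RPKM with vitamin C and 23.2 RPKM untreated, and the kinase Tbk1 had 30.2 RPKM with vitamin C and 29.1 RPKM untreated. The adaptor kinase Irak1 had 57.6 RPKM with vitamin C and 64.5 RPKM untreated.

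**Figure D2:**
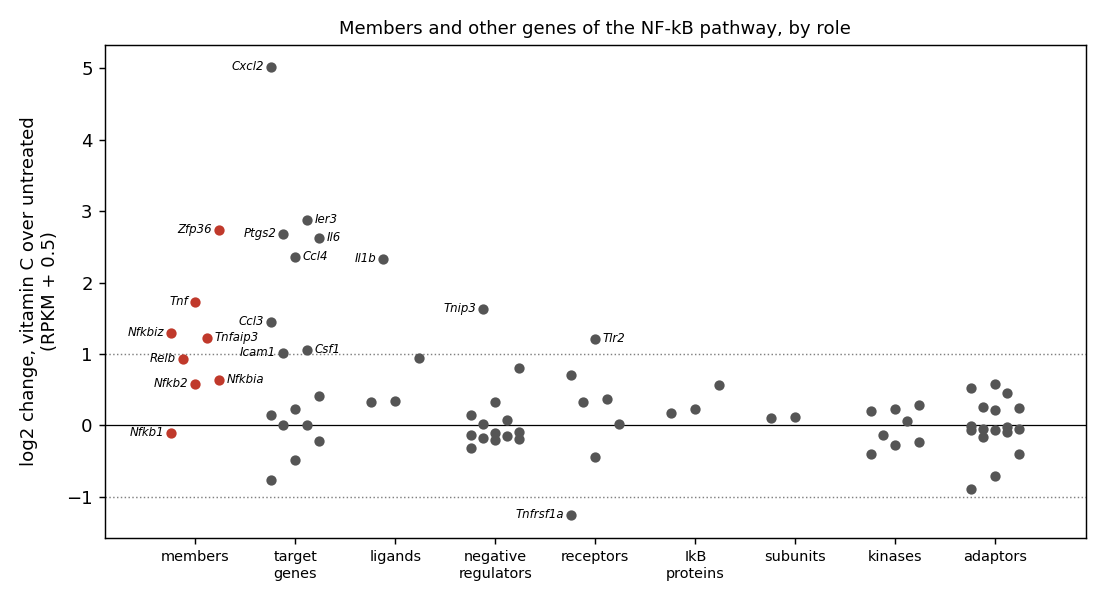
Log2 change, vitamin C over untreated with 0.5 RPKM added, of the 8 measured genes of the set (red) and of 71 other measured pathway genes by role (grey). Dotted lines mark 2-fold. Target genes spread mostly upward, led by Cxcl2 at 5.02, while kinases, adaptors and subunits lie between the lines.

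Other lists differed between the same 2 libraries, where 2.38% of all measured genes were 2-fold higher with vitamin C and 1.92% were 2-fold lower. Of 18 measured immediate early genes, 15 were 2-fold higher with vitamin C, with a median log2 change of 1.94 and summed levels of 935 RPKM with vitamin C and 259 RPKM untreated. Of the 15, 5 reached 1 RPKM with vitamin C alone and could be kept only by being higher there. Of 12 myeloid progenitor markers 5 were 2-fold lower (Mpo, Kit, Prtn3, Flt3 and Hoxa9), with a median of −0.86. Hoxa9 is also the gene of the immortalizing factor, and the origin of its reads was not tested. Cd34 alone was higher, at 498 RPKM with vitamin C and 299 RPKM untreated. Monocyte and macrophage markers summed to 1898 RPKM with vitamin C and 1410 RPKM untreated. Most of that was Ly6c2, at 1331 RPKM with vitamin C and 1122 RPKM untreated. Of the 9 measured out of 14, 3 were 2-fold higher (Cd68, Cd14 and Ccr2) and 1 lower (Irf8). Irf8 had 2.58 RPKM with vitamin C and 8.58 RPKM untreated. Fcgr1 was also lower, at 1.56 RPKM with vitamin C and 3.39 RPKM untreated. Adgre1 had 298 RPKM with vitamin C and 165 RPKM untreated, and Cd68 had 114 RPKM with vitamin C and 34.3 RPKM untreated, while Cd163 and Mrc1 were at or near 0 in both libraries. Mast cell and basophil markers, 8 of 10 measured, summed to 2859 RPKM with vitamin C and 2121 RPKM untreated, most of it Cpa3. Of those 8, 2 were 2-fold higher and none lower: Cma1, at 14.6 RPKM with vitamin C and 0.359 RPKM untreated, and Ms4a2, at 5.78 RPKM with vitamin C and 1.23 RPKM untreated. Neutrophil markers, 5 of 12 measured, summed to 53.9 RPKM with vitamin C and 70.1 RPKM untreated. The part of these lists in the values of the 9 genes was not tested.

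Peak lists covered H3K4me3, a mark of promoters, H3K27ac, found at promoters and enhancers in use, H3K4me1, a mark of enhancers, and the myeloid transcription factors PU.1 and Runx1. A peak counted as found in both libraries at an overlap of 1 bp, and peak values are the authors' own. They rank peaks within a list and do not measure a difference between lists. A pair of scores given below for a peak is therefore no measure of gain or loss. Within 50 kb of the 9 genes lay 100 H3K4me3 peaks with vitamin C and 94 untreated. There were 86 H3K27ac peaks with vitamin C and 80 untreated, and 68 H3K4me1 peaks with vitamin C and 89 untreated. PU.1 had 41 peaks with vitamin C and 97 untreated, and Runx1 had 26 with vitamin C and 16 untreated.

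Most of the unequal counts followed the whole lists. Of the 41 vitamin C PU.1 peaks near the genes 1 (2.44%) had no untreated peak, against 4.83% of the whole vitamin C list. Of the 97 untreated PU.1 peaks 57 (58.8%) had no vitamin C peak, against 63.9% of the whole untreated list. When each PU.1 list was cut to the length of the shorter, the shares near the genes were 24.4% with vitamin C and 29.5% untreated. For Runx1, 11 of 26 vitamin C peaks (42.3%) had no untreated peak, against 49.3% of the whole list, and 1 of 16 untreated peaks (6.25%) had no vitamin C peak, against 18.2%. With Runx1 lists of equal length those shares were 15.4% with vitamin C (2 of 13 peaks, against 31.4% of all) and 31.2% untreated (5 of 16, against 30.6% of all), the opposite order. The shares in lists of full length lay close to or under those of the whole lists and showed nothing particular to the 9 genes.

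For the histone marks, 24 of 68 H3K4me1 peaks with vitamin C (35.3%) and 48 of 89 untreated (53.9%) had no counterpart, against 42.5% of the whole list with vitamin C and 58.9% untreated. H3K4me3 peaks without a counterpart numbered 18 of 100 with vitamin C (18.0%) and 9 of 94 untreated (9.57%), against 14.3% with vitamin C and 9.53% untreated in the whole lists. H3K27ac peaks without one numbered 11 of 86 with vitamin C (12.8%) and 4 of 80 untreated (5.00%), against 11.2% with vitamin C and 13.4% untreated. All 11 of those vitamin C peaks ranked in the weaker part of their list, at 72.8% to 99.9% of its length, and 3 of them lay inside the span of Nfkb1 and 4 near Tnf. No strong H3K27ac peak near the 9 genes was therefore found in the vitamin C library alone.

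**Figure D3:**
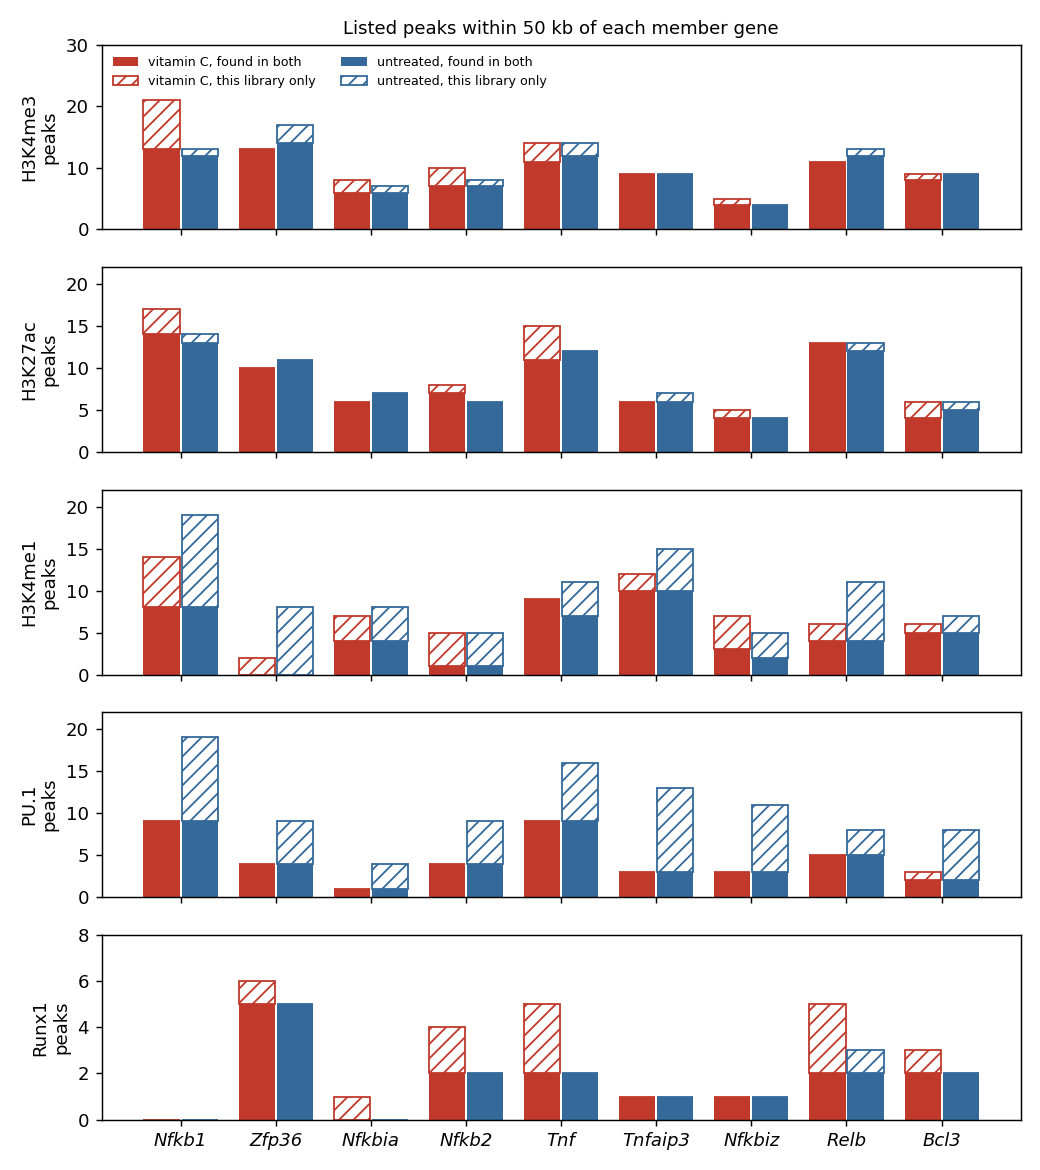
Number of listed peaks within 50 kb of each gene, for 5 antibodies (rows), with vitamin C in red on the left and untreated in blue on the right. Filled parts overlap a peak of the other library and hatched parts do not. Untreated PU.1 bars are taller for all 9 genes, and Nfkb1 has no Runx1 peak in either library.

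The gene with the widest RNA gap, Zfp36 (chr7:28376784-28379228), lay in strong H3K27ac in both libraries. The peak over its start (chr7:28377968-28386736 with vitamin C), which also covers part of Med29, ranked 224 of 35970 with vitamin C and 246 of 36953 untreated. Transcription factor peaks over the start were each listed in a single library. A Runx1 peak (chr7:28379217-28379437, score 7.47) was listed with vitamin C and had no untreated counterpart, and a PU.1 peak (chr7:28379286-28379478, score 4.39) was listed untreated and had no vitamin C counterpart. Both ranked low, Runx1 at 4631 of 6250 and PU.1 at 47636 of 61611. Such peaks were common, since 49.3% of all vitamin C Runx1 peaks and 63.9% of all untreated PU.1 peaks had no counterpart. The 2 peaks cover the part of the printed promoter that holds the EGR match and, for Runx1, the CArG box.

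Around Zfp36 there were 6 Runx1 peaks with vitamin C and 5 untreated. The strongest with vitamin C, in Rps16, had a score of 63.7 with vitamin C and 7.82 untreated. For H3K4me1 there were 2 peaks with vitamin C and 8 untreated, none of them shared. Lack of a counterpart was common for this mark, at 42.5% of the whole list with vitamin C and 58.9% untreated. The closest untreated peak began 295 bp from the upper end of the span. The 6 other coding genes within 50 kb mean that a peak near Zfp36 cannot be assigned to it.

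At Tnf (chr17:35199367-35202007), an H3K27ac peak over the start ranked 6887 of 35970 with vitamin C and 7956 of 36953 untreated, and H3K4me3 covered the start in both libraries. A PU.1 peak over the start had a score of 5.98 with vitamin C and 14.5 untreated, and no Runx1 peak lay over it. That PU.1 peak spans the GAGGAA core shown above. The strongest H3K4me1 peak of the untreated list near Tnf (chr17:35202218-35203408, in Lta) reached the promoter window and had no vitamin C counterpart. The strongest H3K27ac peak near Tnf lay in Lst1, at ranks 1587 with vitamin C and 1532 untreated, and 8 other coding genes lie within 50 kb.

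Tnfaip3 (chr10:19000910-19015410) had the strongest PU.1 peak over a start among the 6 genes with a listed start, and no other coding gene lay within 50 kb. Its PU.1 peak (chr10:19015125-19015662) scored 99.4 with vitamin C, rank 398 of 23522, and 161 untreated, rank 615 of 61611. A Runx1 peak within it scored 34.4 with vitamin C and 5.10 untreated. Both peaks cover the κB and AP-1 matches of the printed promoter. Upstream, about 49 kb before the start, an H3K27ac peak (chr10:19060610-19068752) ranked 448 with vitamin C and 511 untreated, while the peak over the start ranked 7914 with vitamin C and 11048 untreated. The strongest H3K27ac near Tnfaip3 was therefore distal, and listed in both libraries.

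Nfkbia (chr12:55489409-55492647) showed another arrangement. No PU.1 or Runx1 peak lay over its start in either library. A Runx1 peak centred 654 bp inside the gene (score 11.5) was listed with vitamin C alone, and the strongest PU.1 peak, beyond its far end, scored 5.24 with vitamin C and 9.98 untreated. H3K27ac over the start ranked 10478 with vitamin C and 11048 untreated.

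**Figure D4:**
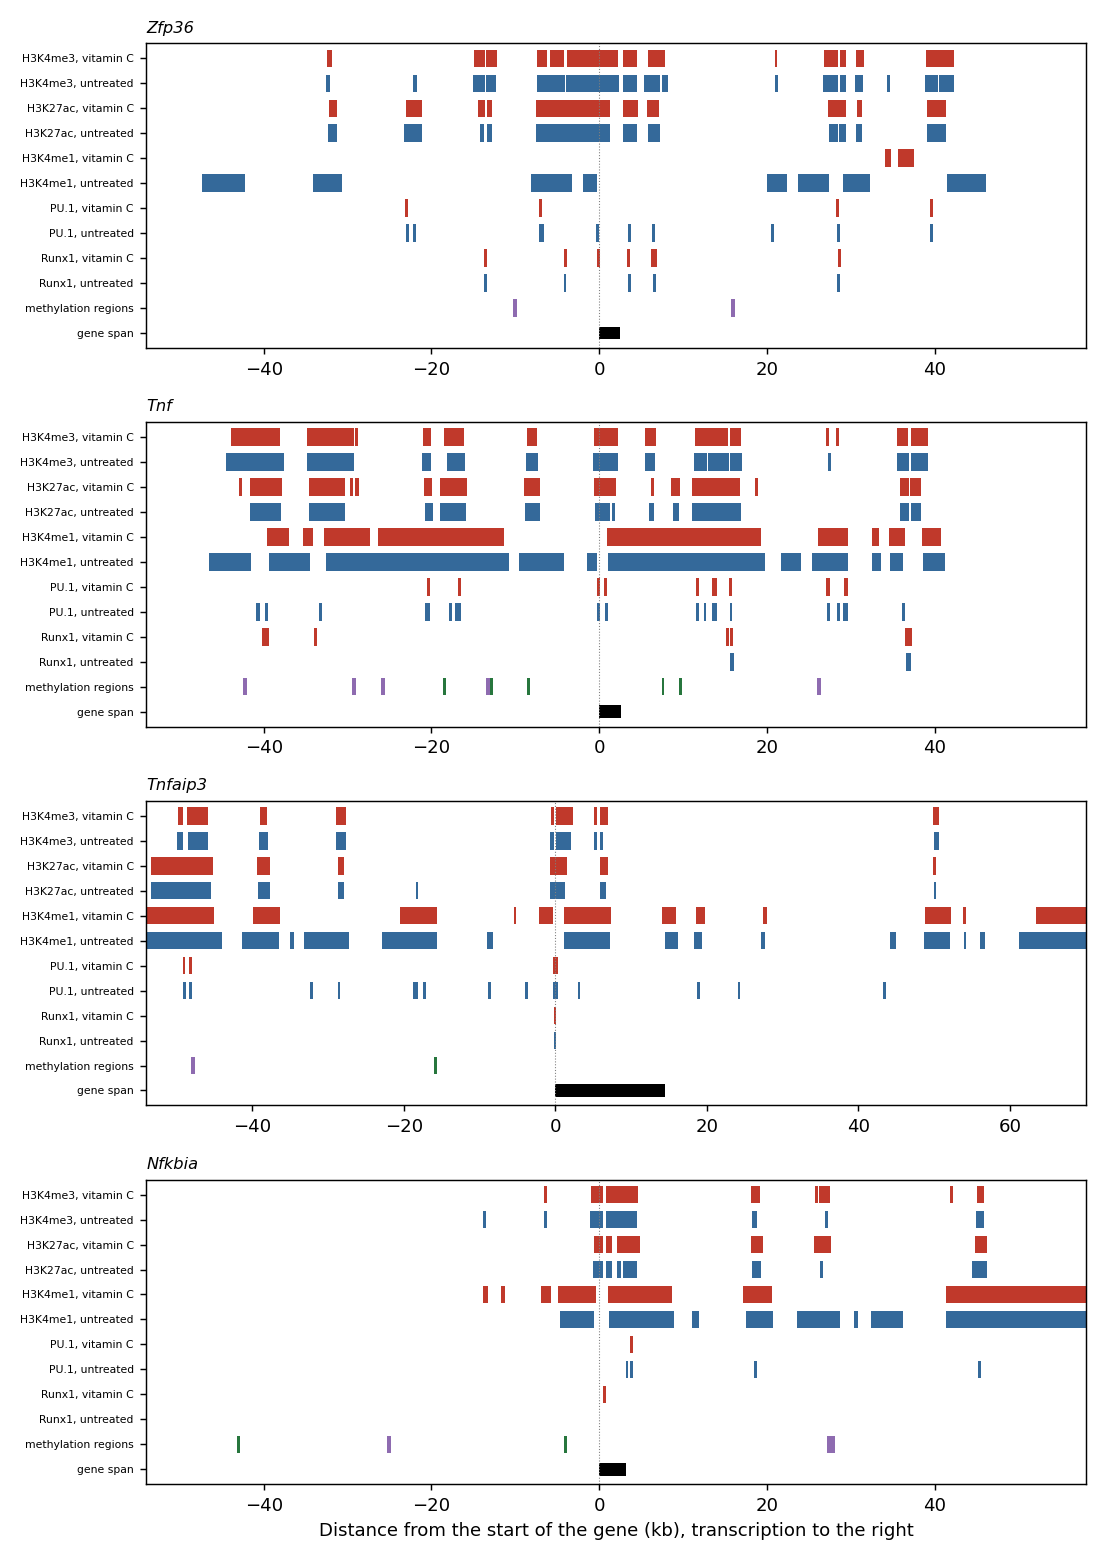
Peaks, methylation regions and gene span around Zfp36, Tnf, Tnfaip3 and Nfkbia, by distance from the start in kb with transcription to the right. Vitamin C rows (red) stand above untreated rows (blue). WGBS deMRs are green and other regions purple, features under 0.35 kb are widened to 0.35 kb, and features running past the frame are cut off. H3K27ac rows mostly overlap, but 4 of 15 vitamin C peaks around Tnf have no untreated peak (26.7%, against 11.2% of the whole list). H3K4me1 rows around Zfp36 do not overlap, where 42.5% of the whole list with vitamin C and 58.9% untreated lack a counterpart. PU.1 marks are denser untreated.

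Of the other genes, Nfkbiz (chr16:55811375-55838954) had its strongest PU.1 peak at chr16:55811754-55812157, scored 57.7 with vitamin C and 105 untreated. Its only Runx1 peak, inside the gene, scored 69.8 with vitamin C and 13.8 untreated. Relb (chr7:19606217-19629438) had 5 Runx1 peaks with vitamin C and 3 untreated, the strongest inside the gene with scores of 65.1 with vitamin C and 22.9 untreated. At Nfkb2 (chr19:46300994-46312400) the strongest Runx1 peak lay over the second listed start, with scores of 35.2 with vitamin C and 4.62 untreated. A PU.1 peak over that start, score 7.62, was listed untreated without a counterpart.

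Nfkb1 (chr3:135584655-135691969), nearly level in RNA, had no Runx1 peak within 50 kb in either library, and 9 PU.1 peaks with vitamin C and 19 untreated. The strongest of the untreated list scored 38.3 with vitamin C and 152 untreated. The H3K27ac peak around it (chr3:135601398-135611659) ranked 704 with vitamin C and 356 untreated. Bcl3 (chr7:19808462-19822824), scarcely expressed, had a strong PU.1 peak in its window, ranked 30 with vitamin C (score 217) and 60 untreated (score 323). That peak lay 48324 bp from the gene, in Ceacam16. A Runx1 peak upstream of the Bcl3 start was listed in both libraries, with scores of 54.1 with vitamin C and 4.28 untreated.

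Methylation regions are lists of positions without values, named deMR, iMR and iHR by the authors, whose direction and threshold the labels do not state. Within 50 kb of the 9 genes lay 49 of them. By list, 20 were WGBS deMRs, 4 WGBS iMRs, 8 MeDIP deMRs, 2 MeDIP iMRs, 9 hMeDIP iHRs and 6 iMRs of the list that is named for the mutant and attached to the untreated wild-type IDH1 sample. Tnf and Nfkb1 had 11 each, Nfkbiz and Nfkb2 had 7 each, Nfkbia had 4, Bcl3 had 3, and Zfp36, Tnfaip3 and Relb had 2 each.

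WGBS deMRs lay near 7 of the 9 genes, against 46.2% of measured coding genes, and hMeDIP iHRs near 7 of 9, against 45.4%. Zfp36 and Relb were the ones without a WGBS deMR. MeDIP deMRs lay near 5 of 9 (38.1% of measured coding genes), wild-type-attached iMRs near 5 of 9 (39.3%), WGBS iMRs near 4 of 9 (26.6%) and MeDIP iMRs near Nfkbiz alone (21.3%). The wide span of Nfkb1 gives it a longer window than the others, so its count is not per length.

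A few regions coincided with other features. Of the 20 WGBS deMRs, 15 lay under an H3K4me1 peak of either library (75.0%, against 54.0% of all WGBS deMRs) and 4 under a PU.1 peak (20.0%, against 14.9%). At Nfkbiz, a WGBS deMR (chr16:55811925-55812023) lay under the strongest PU.1 peak given above. Inside Nfkb1, deMRs lay under PU.1 peaks with scores of 8.24 with vitamin C and 7.07 untreated, and of 43.1 with vitamin C and 35.8 untreated. The deMR under a PU.1 peak near Nfkb2 was at a peak listed untreated alone (score 5.13). None of the 20 lay under a Runx1 peak.

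Regions of separate assays overlapped at 4 places. A WGBS deMR and a MeDIP deMR overlapped below Nfkbiz (chr16:55788803-55789088 and chr16:55789001-55789500) and above Tnf (chr17:35214721-35215186 and chr17:35215001-35215500). Farther above Tnf, in Nfkbil1, a WGBS deMR overlapped an hMeDIP iHR (chr17:35231036-35231324 and chr17:35231001-35231500). Of 2 weak H3K27ac peaks listed there with vitamin C alone, 1 overlapped the deMR and both overlapped the iHR. Inside Nfkb2, a WGBS iMR overlapped an iMR of the wild-type-attached list (chr19:46309205-46309314 and chr19:46308751-46309500). No region of any list lay over a printed promoter.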

How the data were processed

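Per the submitters' processing notes, the files were made on build mm10 with tools that include BWA, Novoalign 3.02.08, SAMtools, Picard and MACS2 2.1.0.2, with no role or order given. Which program counted reads, with what annotation and strand setting, is not given in the sources used here. For each Ensembl gene the authors deposited a raw read count and its RPKM, from 1 library a group. Low counts were even more often than odd (62.2% of counts of 1 to 20 with vitamin C and 64.6% untreated), so counting intervals may be too narrow. With the reads halved, that of Zfp36 ran over 6.43 to 7.33 and that of Bcl3 over 0.370 to 1.27. The authors deposited a p-value per histone peak, whether p or q not stated, and an undefined score per PU.1 or Runx1 peak. Peaks were listed per library, and repeated intervals were removed (259 for PU.1 with vitamin C and 1159 untreated, and 337 for Runx1 with vitamin C and 139 untreated). Positions are printed as the files list them.

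Log2 changes were computed with 0.5 RPKM added for genes of at least 1 RPKM in either library, with Python 3.11.15 and scipy 1.17.1. Alternatives used other pseudocounts, filters, folds and windows, stricter overlap, lists of equal length, and scaling by edgeR 4.0.16 TMM or median of ratios. Symbols were matched for 21611 of 22371 genes. Spans and promoters came from RefSeq tables of GRCm38.p6. The members, lists and comparisons were chosen with earlier results of these data known. The text names all 9 genes, in each pathway role the genes past 2-fold or else the most abundant, the 2 nearest genes to each member past 2-fold, and the strongest peaks and those over a start. Other genes, peaks and regions were named after their values were seen. Further unnamed columns of the RNA tables, 3 per file, and 4 ChIP inputs were not used here.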

Additional observations from a re-analysis of the deposited data

How the results depend on the processing

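No paired analysis was possible because each group was 1 library. For the same reason no replicate could be left out, and depth limits only the weakest values, such as Bcl3. No log2 change of the 9 genes changed sign under the other pseudocounts and scalings. Zfp36, Tnf, Nfkbiz and Tnfaip3 made up the 4 genes past 2-fold. The 2-fold count was 4 under every other setting except 0.1 RPKM added, where it was 5. At 1.5-fold, a lower threshold, it was 6. The median log2 change was 1.19 with 0.1 RPKM added and 0.96 with 1 RPKM added over the 8 measured genes, 0.93 over all 9 with no filter and 1.22 over the 7 genes at 5 RPKM or more. The pathway list had 2 genes lower with 0.1 RPKM added and 4 at 1.5-fold. Over all measured genes, 110 were 2-fold lower at 5 RPKM or more, and at 1.5-fold 648 were higher and 693 lower, where at 2-fold more were higher (248) than lower (200). Both other scalings moved the log2 changes of the 9 genes upward, by 0.02 (Bcl3) to 0.06.

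Shares of peaks without a counterpart moved more. Within 10 kb, the H3K4me1 share with vitamin C was 50.0% (12 of 24 peaks), against 42.5% of the whole list. The Runx1 share there was 21.4% with vitamin C (3 of 14, against 49.3%) and 0 untreated (0 of 11, against 18.2%). These shares rest on few peaks. With lists of equal length, PU.1 had 24.4% with vitamin C and 29.5% untreated, against 31.1% with vitamin C and 31.7% untreated of all peaks. At equal length H3K4me1 with vitamin C had 52.9%, against 54.1% of all peaks, and Runx1 had 15.4% with vitamin C and 31.2% untreated, against 31.4% with vitamin C and 30.6% untreated of all peaks, which turned the order of the Runx1 shares. H3K4me3, H3K27ac and untreated H3K4me1 moved less. Within 10 kb there were 17 methylation regions. For the other settings that moved a value, the cause was not tested.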
